A study of Sus scrofa with 8 samples.

Results

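The miRNAs described here are those known from blood vessels and connective tissue: miR-126, miR-143, miR-145, miR-199a, miR-199b, miR-214, miR-221 and miR-222. They were chosen by name, with or without the pig prefix ssc- and with or without an arm suffix, and 16 of the 888 miRNA names in the table met this rule, 10 with the prefix and 6 without. All 16 were above 0 in at least 2 libraries and entered the tests. The 3p names of miR-199a and miR-199b carried the same reads in a fixed proportion (2.002 to 2.003 reads of ssc-miR-199a-3p for each read of ssc-miR-199b-3p over the 4 libraries), so they were counted as 1 in the levels and medians of 15 members, while the tests cover all 16 names.

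Livers came from 4 healthy Yanan sows, an indigenous Chinese breed, with 2 young sows at 180 days of age and 2 old sows at 8 years. Per the study's description the sows were not related to each other, the young sows had not given birth and the old sows had done so over many years, so that age and reproductive history cannot be told apart here. Small RNA-seq gave the miRNA values, and RNA-seq of the same-numbered livers gave the mRNA values, with 1 library of each kind per liver. Each liver was sequenced as whole tissue, in which fewer cells of a type and less RNA per cell cannot be told apart.

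A miRNA hairpin is cut into a 5p and a 3p arm, and the arm that is loaded into the silencing complex represses mRNAs that it pairs with. miR-126 is made in endothelial cells from an intron of the gene EGFL7. miR-143 and miR-145 are made from 1 shared transcript in smooth muscle cells and other mesenchymal cells. miR-214 and 1 hairpin of miR-199a come from 1 transcript on the strand opposite to the dynamin gene DNM3. It is made in mesenchymal cells, among them the stellate cells of liver. miR-221 and miR-222 come from an X-linked pair of hairpins in many dividing and activated cells. In the RefSeq annotation of the pig, MIR143 stood next to MIR145, MIR214 next to MIR199A-1 within the span of DNM3, and MIR221 next to MIR222, while MIR199A-2 and MIR199B lay within DNM2 and DNM1.

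Recovered miRNA reads summed to 8715002 to 10437675 over names, with repeated names counted once. In these libraries 1 read was worth 0.962 to 1.33 of the deposited normalized value. That upper sum is more than the filtered depth stated in the paper for its deepest small RNA library. It thus cannot consist of separate reads only, and how reads were counted over names was not given. Shares of reads here and below are shares of these sums. The miRNAs together took 6.03% and 6.99% of the sum in young replicates 1 and 2, and 7.88% and 6.22% in old replicates 1 and 2. The deposited scaling placed young replicate 2 low: its values stood at a median of 0.36 below the mean of the 4 libraries on the log2 scale, and young replicate 1 exceeded young replicate 2 for 14 of the 15 members and for 658 of all 867 names tested. TMM scaling of the recovered reads, which sets the bulk of names level between libraries, moved the median old-minus-young difference of all names from 0.18 to -0.01 (log2), and differences below are read against that shift. Hepatocyte markers were abundant in each library, where the 10 hepatocyte mRNAs found summed to 63836 to 101268 CPM (mRNA reads scaled to the size of the library).

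Among the 15 members, ssc-miR-143-3p and both arms of miR-199a stood highest as deposited. The place of miR-199a depends on how its reads were counted. ssc-miR-199b-3p, with the same reads at the lower count, had a mean value of 79180, under the 99955 of ssc-miR-126-3p. Whether miR-199a reads were counted once for each of the genes MIR199A-1 and MIR199A-2 was not tested. The order and the shares of members' reads below carry this limit. The normalized value of ssc-miR-143-3p was 257078 and 180637 for young and 219439 and 170429 for old livers, or 30.6%, 30.8%, 24.9% and 25.3% of the members' reads. The value of miR-199a-5p was 211888 and 163648 in young and 178847 and 153680 in old livers. The old and young livers overlapped for both, with the highest value of each in young replicate 1. Down the order of mean values from there came ssc-miR-199a-3p, ssc-miR-126-3p, miR-145-5p, ssc-miR-221-3p, miR-126-5p, ssc-miR-214, ssc-miR-222, ssc-miR-199b-5p, ssc-miR-145-3p, miR-221-5p, miR-214-5p and ssc-miR-143-5p. Of the 13 steps between neighbours in this order, 10 were within the range of values over libraries, and 3 were not: those from ssc-miR-145-3p to miR-221-5p, from miR-221-5p to miR-214-5p and from miR-214-5p to ssc-miR-143-5p. Within single libraries, 8 of the 13 steps had the same direction in all 4. The remaining name, miR-222-5p, had 4 reads in young replicate 1, 0 in young replicate 2 and 2 in each old liver, at or near the 3 reads taken as the limit of detection, so no fold of its own is given.

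**Figure D1:**
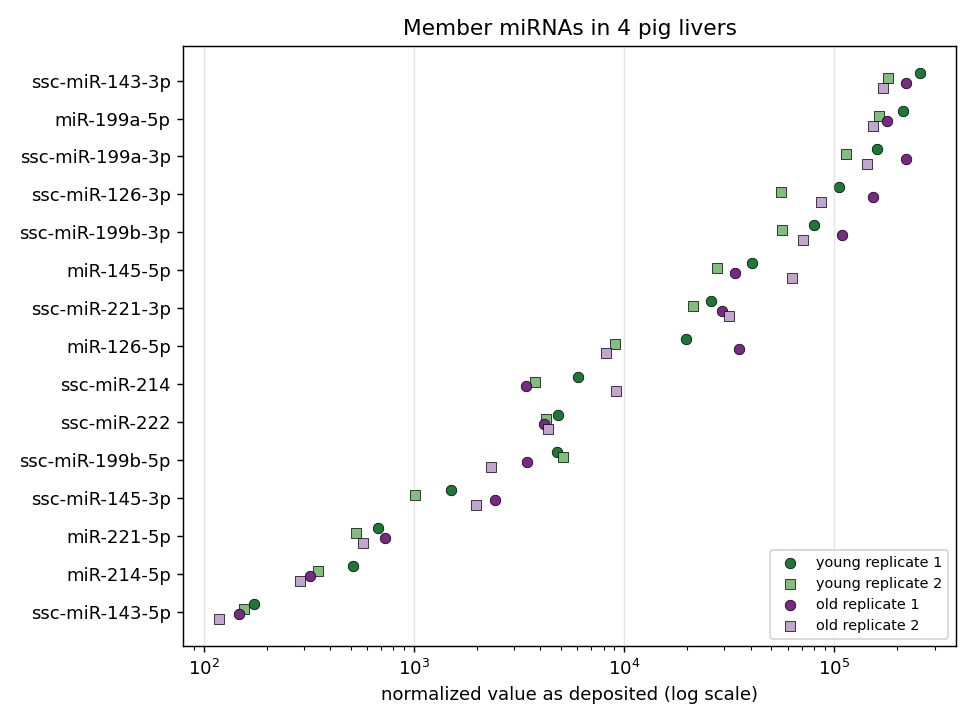
Normalized values of miRNA names (log axis) in each of the 4 small RNA libraries, with circles for replicate 1 and squares for replicate 2, green for young and purple for old livers; miR-222-5p is left out. The values span from 118 for ssc-miR-143-5p to 257078 for ssc-miR-143-3p, and within a name the old and young livers mostly overlap.

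The question put to these miRNAs was whether their levels differed between old and young livers. None of the 16 names passed the thresholds of limma (adjusted p under 0.05 and an absolute log2 fold change above 1), against 0% of the 867 names tested. The members' adjusted p ran from 0.627 to 0.972, and 0 of the 16 names had an unadjusted p under 0.05, against 103 of all names. The exact test of edgeR on recovered reads called 3.69% of all names and none of the 16, with 1 of the 16 at an unadjusted p under 0.05, and the quasi-likelihood test of edgeR called none of the 16, with 1 at an unadjusted p under 0.05, and none of all names, with 122. The median log2 fold change of the members, old minus young, was 0.22, beside 0.18 for all names, and 0.17 without the members under a mean of 10. It was 0.02 after TMM scaling, beside -0.01 for all names, and -0.09 in the tests of edgeR, beside 0.10. With a library left out it ran from -0.18 (without young replicate 2) to 0.52 (without young replicate 1). All names then ran from -0.11 to 0.44, with the same libraries at the ends. The members as a group thus had no settled direction, and neither had all names. With 2 livers a group the standard errors of the names other than miR-222-5p were 0.58 to 0.84 on the log2 scale, and their 95% intervals each reached beyond a difference of 1 in at least one direction.

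Both old values lay above both young values for 2 members, ssc-miR-145-3p and ssc-miR-221-3p, beside 28.3% of all names. Both lay below for 3 members, ssc-miR-143-5p, ssc-miR-199b-5p and miR-214-5p, beside 16.1% of all names. After TMM scaling the old values were above for 1 member, ssc-miR-145-3p, beside 22.8% of names, and below for 6, the 3 named before together with ssc-miR-143-3p, miR-199a-5p and ssc-miR-222, beside 28.0% of names. As a share of each library's reads they were above for 3, ssc-miR-126-3p, ssc-miR-145-3p and ssc-miR-221-3p, beside 28.6% of names, and below for 2, ssc-miR-199b-5p and miR-214-5p, beside 21.0%. On the deposited scale, after TMM scaling and as a share of reads alike, ssc-miR-145-3p was higher and ssc-miR-199b-5p and miR-214-5p were lower in both old livers.

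**Figure D2:**
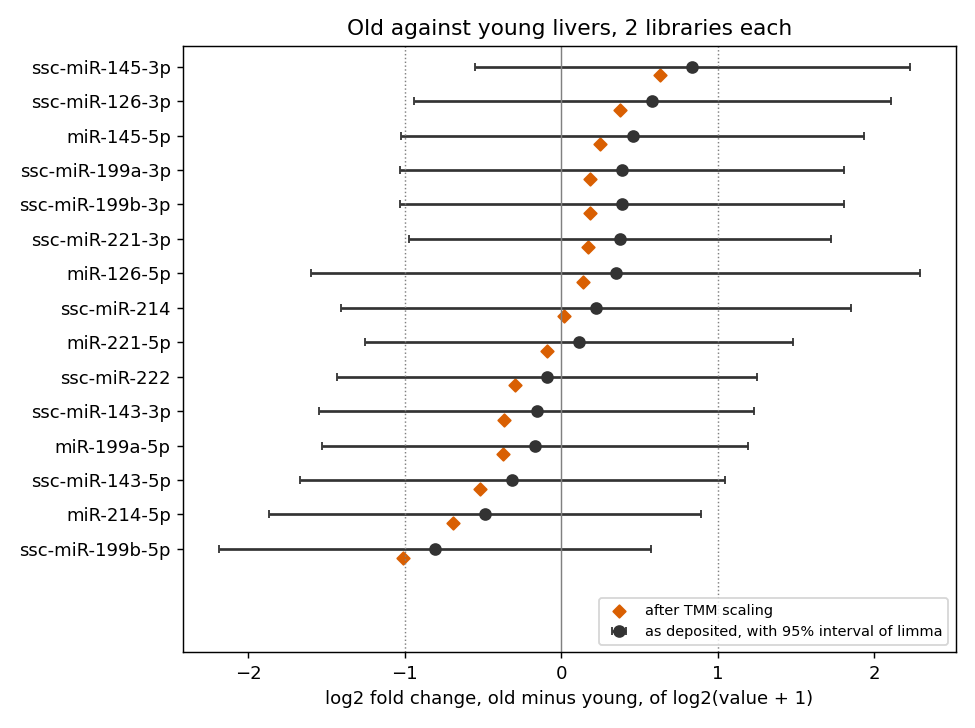
Log2 fold change, old minus young, of log2(value + 1) for 15 names (miR-222-5p is left out), with black points and 95% intervals of limma for the deposited values and orange diamonds for the values after TMM scaling; dotted lines mark a log2 fold change of 1 in either direction. Every interval includes 0, and TMM scaling moves each name to a lower value.

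The endothelial miR-126 was higher in old replicate 1 than in any other liver. The normalized value of ssc-miR-126-3p, the arm known to repress brakes on VEGF signaling, was 105578 and 55602 in young livers and 152230 and 86409 in old livers. Young replicate 1 stood above old replicate 2, so the groups overlapped on the deposited scale, and the log2 fold change was 0.58 ± 0.66 (SE, n = 2 per group, limma, adjusted p = 0.772). As a share of reads they did not overlap, with 0.758% and 0.663% in young and 1.36% and 0.796% in old livers, so the order of young replicate 1 and old replicate 2 depends on the scaling. The value of miR-126-5p was 19735 and 9011 in young and 35295 and 8170 in old livers. The highest and the lowest of these were both old livers, and the log2 fold change of 0.35 ± 0.84 (SE, limma, adjusted p = 0.900) changed sign without old replicate 1 (-0.71) and without young replicate 2 (-0.22). The gap of 2.11 (log2) between old replicates 1 and 2 in miR-126-5p was larger in size than that of 88.2% of all names, and that of 0.82 in ssc-miR-126-3p than that of 55.8%. Both arms together took 0.900% and 0.771% of reads in young livers and 1.67% and 0.871% in old livers.

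The arms of miR-126 kept no fixed proportion. The 5p to 3p ratio, in which the scaling of a library cancels, was 0.187 and 0.162 in young livers and 0.232 and 0.0945 in old livers. Old replicate 1 held the highest and old replicate 2 the lowest ratio (mean log2 difference -0.23, two-sided exact permutation p = 1, where 2 against 2 livers cannot go below 0.333).

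miR-143 and miR-145 are known to hold smooth muscle cells in the contractile state, and their major arms kept a steady proportion in 3 of the 4 livers. The value of miR-145-5p, the major arm, was 40857 and 27733 in young livers and 33768 and 63236 in old livers, highest in old replicate 2 and overlapping between the groups (log2 fold change 0.46 ± 0.64, SE, limma, adjusted p = 0.824). ssc-miR-145-3p, the minor arm, had 1495 and 1013 in young and 2437 and 1985 in old livers. Both old livers stood above both young livers, and this was the highest log2 fold change of the 16 names (0.84 ± 0.60, SE, 95% interval -0.55 to 2.23, limma, adjusted p = 0.627). ssc-miR-143-3p, whose values are given above, had a log2 fold change of -0.16 ± 0.60 (SE, limma, adjusted p = 0.943), which became 0.10 without young replicate 1 and 0.03 without old replicate 2. Its minor arm ssc-miR-143-5p had 173 and 155 in young and 148 and 118 in old livers, all old below all young, with a log2 fold change of -0.31 ± 0.58 (SE, limma, adjusted p = 0.862).

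The ratio of ssc-miR-143-3p to miR-145-5p was 6.29 and 6.51 in young livers and 6.50 in old replicate 1, and 2.70 in old replicate 2. Old replicate 2 alone stood apart, and without it the mean log2 difference of old from young went from -0.61 to 0.02 (exact permutation p = 0.667 with all 4 livers). The ratio of miR-145-5p to ssc-miR-145-3p was 27.3 and 27.4 in young livers, against 13.9 for old replicate 1 and 31.9 for old replicate 2. Here old replicate 1 stood lowest. The ratio of ssc-miR-143-3p to ssc-miR-143-5p, at 1482, 1166, 1485 and 1447 in the same order, was lowest in young replicate 2.

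The miR-199 and miR-214 names, made in mesenchymal cells, differed in direction between arms and in no case past the test. ssc-miR-199a-3p had 159955 and 113167 in young livers and 218673 and 142440 in old livers, with old replicate 1 highest and young replicate 1 above old replicate 2 (log2 fold change 0.39 ± 0.61, SE, limma, adjusted p = 0.849). The values of ssc-miR-199b-3p followed at about the fixed proportion, with 79909 and 56539 in young and 109156 and 71115 in old livers. For miR-199a-5p the log2 fold change was -0.17 ± 0.59 (SE, limma, adjusted p = 0.936), which became 0.02 without young replicate 1. The 5p to 3p ratio of miR-199a was lower in both old livers, at 0.818 and 1.08, than in the young livers, at 1.32 and 1.45 (mean log2 difference -0.56, exact permutation p = 0.333, adjusted p over 5 ratios = 0.833). That p is the smallest that 2 against 2 livers can give.

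ssc-miR-199b-5p was the lowest of the 16 in fold. Its values were 4801 and 5115 in young livers and 3453 and 2320 in old livers, all old below all young, on each of the 3 scales. The log2 fold change was -0.81 ± 0.60 (SE, 95% interval -2.19 to 0.57, limma, adjusted p = 0.640), while the exact test of edgeR gave -1.03 (unadjusted p = 0.0268, adjusted p = 0.283). The ratio of miR-199a-5p to ssc-miR-199b-5p was 44.1 and 32.0 in young livers and 51.8 and 66.2 in old livers, all old above all young. The sequences of the 5p arms of miR-199a and miR-199b are close, and how reads that match more than 1 name were handled was not given in the sources used here, so the split between them is uncertain.

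ssc-miR-214 had 6070 and 3788 in young livers and 3413 and 9154 in old livers. Old replicate 1 was the lowest and old replicate 2 the highest of the 4, and the gap of 1.42 (log2) between them was larger in size than that of 77.3% of all names. Its log2 fold change of 0.22 ± 0.70 (SE, limma, adjusted p = 0.929) turned to -0.49 without old replicate 2 and to -0.12 without young replicate 2. The other arm, miR-214-5p, was 515 and 349 in young and 320 and 287 in old livers, all old below all young, with a log2 fold change of -0.49 ± 0.60 (SE, limma, adjusted p = 0.805). The ratio of ssc-miR-214 to miR-214-5p was 11.8 and 10.8 in young livers, against 10.7 for old replicate 1 and 31.9 for old replicate 2. Similarly, the ratio of miR-199a-5p to ssc-miR-214 was 34.9, 43.2 and 52.4 in the first 3 of these livers and 16.8 in old replicate 2 (mean log2 difference -0.39, exact permutation p = 1). Without old replicate 2 that difference was 0.43. MIR199A-1 lies next to MIR214 and MIR199A-2 does not, so the reads of miR-199a-5p may come only in part from the transcript of miR-214.

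miR-221 and miR-222 are known repressors of the cell cycle inhibitor p27. ssc-miR-221-3p was 25917 and 21261 in young livers and 29381 and 31571 in old livers, all old above all young as deposited and not after TMM scaling (log2 fold change 0.38 ± 0.58, SE, limma, adjusted p = 0.849). ssc-miR-222 was 4826 and 4260 in young and 4176 and 4334 in old livers, a range of 1.16-fold over the 4 livers as deposited (log2 fold change -0.09 ± 0.58, SE, limma, adjusted p = 0.972). As a share of reads ssc-miR-222 spread further, at 0.0347% and 0.0508% in young and 0.0373% and 0.0399% in old livers. The ratio of ssc-miR-221-3p to ssc-miR-222 was 5.37 and 4.99 in young livers and 7.04 and 7.28 in old livers, higher in both old livers by a mean of 0.47 on the log2 scale (exact permutation p = 0.333, adjusted p over 5 ratios = 0.833). The minor arm miR-221-5p was 672 and 531 in young and 729 and 576 in old livers, and its log2 fold change was 0.12 as deposited and -0.09 after TMM scaling. The 3p to 5p ratio of miR-221 was 38.5, 40.0 and 40.3 in the young livers and old replicate 1, and 54.8 in old replicate 2.

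**Figure D3:**
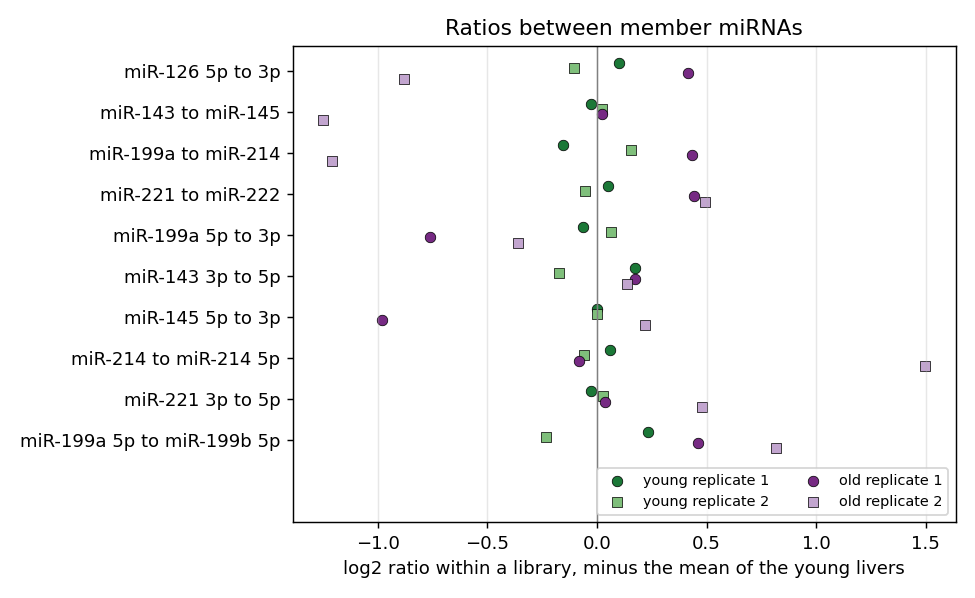
Log2 ratios between miRNA names within each library, minus the mean of the young livers, with circles for replicate 1 and squares for replicate 2, green for young and purple for old livers. Old replicate 2 stands apart in the ratios of miR-143 to miR-145, miR-199a to miR-214 and miR-214 to its 5p arm, and both old livers lie on 1 side of both young livers for miR-221 to miR-222, miR-199a 5p to 3p, miR-221 3p to 5p and miR-199a 5p to miR-199b 5p.

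These arm ratios were set beside those of all 46 miRNAs with both arms named and a mean value of at least 100. The old and young livers did not overlap in the arm ratio for 3 of the 6 member miRNAs with both arms (miR-199a, miR-199b and miR-221, all with less 5p per 3p in old livers, and with the 3p reads shared by the first 2), against 60.9% of the 46. For miR-221 the groups were barely apart, with a log2 ratio of 5p to 3p of -5.32 in young replicate 2 and -5.33 in old replicate 1. The median gap between the old livers in log2 arm ratio was 0.42 for the members and 0.47 for all 46, and between the young livers 0.17 and 0.20. The old livers lay further apart than the young for 4 of the 6 and for 35 of the 46.

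The other names with the most similar pattern over the 4 libraries were found by the Euclidean distance of centred log2 values, over 294 names. miR-374a-5p and ssc-miR-374a-3p were nearest to ssc-miR-126-3p (distances 0.157 and 0.209). miR-181d-5p and ssc-miR-340 were nearest to ssc-miR-143-3p (0.164 and 0.177), ssc-miR-423-3p and ssc-miR-1343 to miR-145-5p (0.154 and 0.178), and miR-874-3p and miR-181d-5p to miR-199a-5p (0.0887 and 0.117). miR-194-3p, from a miRNA family abundant in hepatocytes, was nearest to ssc-miR-214 (0.0997), followed by ssc-miR-664-5p (0.189), and miR-497-5p was nearest to ssc-miR-221-3p (0.180). The other nearest names, 1 for ssc-miR-221-3p and both for ssc-miR-222, were predicted miRNAs without a standard name. The median distance of a name was 0.863 to 1.30, and 4 libraries leave room for many names to lie close.

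Markers of other cells moved with some of these libraries. The 8 muscle miRNAs, among them ssc-miR-1 and ssc-miR-206, summed to 2413 and 1326 in young livers and 5433 and 10096 in old livers, with 5 of the 8 above both young values in both old livers (28.3% of all names) and 0 of 8 called by limma. The 8 blood cell miRNAs summed to 72042 and 41479 in young and 81452 and 39937 in old livers. The part of either in the levels of the vascular and stromal miRNAs was not tested.

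The mRNAs of the cells that make these miRNAs were read in the RNA-seq libraries, in CPM. The recovered reads over all mRNAs, a part of each library, summed to 22482241 to 37555696. The CPM of all mRNAs summed to 408898 and 428910 in young livers and to 365330 and 346173 in old livers, lower in both old livers. Of the 25 endothelial genes listed, 14 were found and none was called by limma, against 0% of all 16898 mRNAs tested, with 1 of 14 and 2654 of all mRNAs at an unadjusted p under 0.05. The list's median log2 fold change was 0.43, beside -0.02 for all mRNAs, with both old values above both young values for 6 of 14, beside 24.4% of all, and below for 1, beside 25.0%. That median was 0.80 in the exact test of edgeR and 0.24 to 0.45 with a library left out. EGFL7, the host gene of miR-126 and a secreted factor of endothelial cells, had 1.49 and 1.23 CPM in young livers and 5.17 and 5.21 CPM in old livers. Both old livers were higher and close to each other, with a log2 fold change of 1.39 ± 0.12 (SE, limma, adjusted p = 0.213). In the exact test of edgeR the log2 fold change of EGFL7 was 2.14 with an adjusted p of 0.0975, in a test that called 2.04% of mRNAs higher and 0.320% lower, while the adjusted p was 0.0178 with a trended dispersion and 0.276 in the quasi-likelihood test. For comparison, ssc-miR-126-3p was higher in old replicate 1 than in old replicate 2 on both scales given above.

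Other endothelial mRNAs differed in which old liver was higher. ENG, a TGF-beta co-receptor, had 1.34 and 1.84 CPM in young livers and 2.44 and 6.57 CPM in old livers, highest in old replicate 2 (log2 fold change 0.99 ± 0.47, SE, limma, adjusted p = 0.438). PECAM1, a junction protein that defines endothelium, had 10.5 and 8.92 CPM in young livers and 23.8 and 13.8 CPM in old livers, highest in old replicate 1 (0.84 ± 0.32, SE, limma, adjusted p = 0.364). TEK, the angiopoietin receptor, went the other way at 9.42 and 8.67 CPM in young and 3.14 and 8.01 CPM in old livers (log2 fold change -0.72 ± 0.45, SE, limma, adjusted p = 0.545). KDR had 10.6 and 9.87 CPM in young and 2.26 and 10.3 CPM in old livers, the largest fall of the list (-0.89 ± 0.71, SE, limma, adjusted p = 0.628). OIT3 had 17.9 and 11.5 CPM in young and 4.29 and 17.8 CPM in old livers (-0.63 ± 0.76, SE, limma, adjusted p = 0.750). KDR, OIT3 and TEK were each lowest in old replicate 1. Of the 14 genes, 10 had a log2 fold change above 0 and 4 below 0. PECAM1, TEK, KDR and OIT3 were chosen after their values were seen.

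Of 12 smooth muscle genes, 9 were found and none was called by limma (1 at an unadjusted p under 0.05), with a median log2 fold change of 0.63. Both old livers were above for 3 of 9 (24.4% of all mRNAs) and below for 1 (25.0% of all), and the median was 1.18 in the exact test of edgeR and 0.46 to 1.01 with a library left out. TAGLN, an actin-binding protein of contractile cells, had 2.49 and 3.78 CPM in young livers and 9.80 and 13.7 CPM in old livers (log2 fold change 1.63 ± 0.27, SE, limma, adjusted p = 0.218). Both old livers stood above both young livers, and the log2 fold change in the exact test of edgeR was 2.10, with an adjusted p of 0.0744, or 0.0282 with a trended dispersion and 0.276 in the quasi-likelihood test. TPM2, a tropomyosin, had 4.54 and 10.6 CPM in young and 20.2 and 15.7 CPM in old livers (1.23 ± 0.45, SE, limma, adjusted p = 0.352). ACTA2, smooth muscle actin, was chosen as a defining marker and had 3.18 and 4.32 CPM in young and 3.22 and 11.7 CPM in old livers, high in old replicate 2 alone, the liver with the highest miR-145-5p.

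Of 22 genes of stellate cells and fibroblasts, 16 were found and none was called by limma (1 at an unadjusted p under 0.05), with a median log2 fold change of 0.08. Both old livers were above for 2 of 16 (24.4% of all mRNAs) and below for 0 (25.0% of all), and the median had no settled direction, at -0.27 without old replicate 2, -0.06 without young replicate 1 and 0.33 without either of the others. COLEC11, a lectin of stellate cells, had 5.36 and 4.75 CPM in young and 8.95 and 10.1 CPM in old livers (0.80 ± 0.14, SE, limma, adjusted p = 0.222). NGFR, a neurotrophin receptor of stellate cells, had 0.338 and 0.312 CPM in young livers, against 0.520 CPM for old replicate 1 and 3.19 CPM for old replicate 2, which alone stood out (0.93 ± 0.58, SE, limma, adjusted p = 0.541). COL3A1, a fibrillar collagen given as a defining marker, was 8.75 and 21.4 CPM in young and 5.53 and 23.1 CPM in old livers, high in both livers numbered 2.

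**Figure D4:**
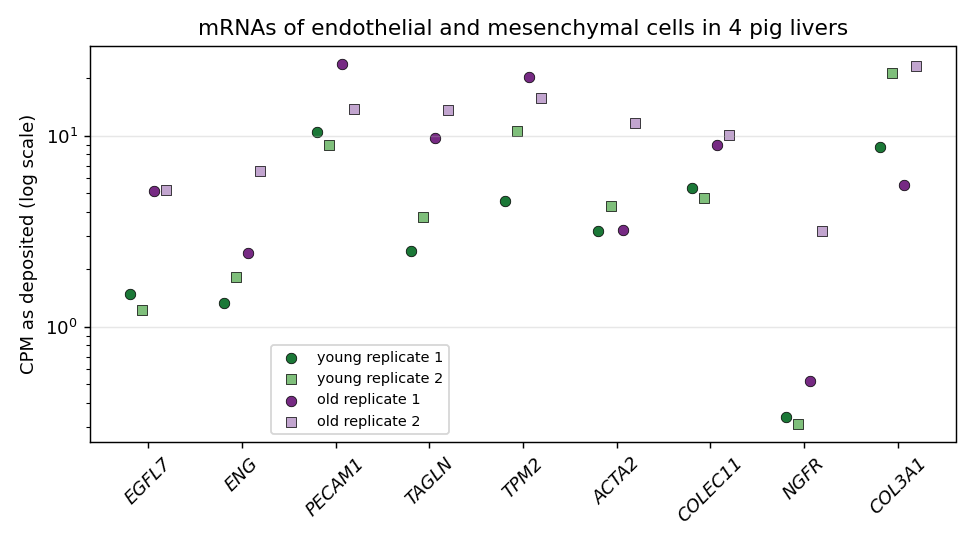
CPM (log axis) of 9 mRNAs of endothelial, smooth muscle and stellate cells in each of the 4 RNA-seq libraries, with circles for replicate 1 and squares for replicate 2, green for young and purple for old livers. EGFL7, TAGLN and COLEC11 lie higher in both old livers with little spread within an age, while ACTA2 and COL3A1 overlap between ages. The genes drawn are a choice from the lists. Not drawn are the 4 of 14 endothelial genes with a log2 fold change below 0, among them TEK, KDR and OIT3, and the 1 of 9 smooth muscle genes below 0, ACTG2.

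The hepatocyte genes, which stand for the bulk of the tissue, had a median log2 fold change of -0.64 over the 10 of 12 found, with 0 above (24.4% of all mRNAs) and 4 below (25.0% of all) in both old livers, none called by limma and 1 at an unadjusted p under 0.05. CPS1 of the urea cycle had 322.6 and 254.6 CPM in young and 61.6 and 169.0 CPM in old livers, and CYP2E1, a cytochrome P450, had 1503 and 2028 CPM in young and 850.4 and 1365 CPM in old livers. CPM are shares, so the part of this difference in the endothelial and smooth muscle values was not tested. The erythroid list (5 of 10 found, none called by limma and 0 at an unadjusted p under 0.05) had a median log2 fold change of 0.02, with HBB, a hemoglobin chain, at 616.6 and 425.5 CPM in young and 302.3 and 401.6 CPM in old livers and ALAS2 of heme synthesis at 4.71, 3.55, 3.53 and 3.15 CPM in the same order. The skeletal muscle list (6 of 15 found, with the same counts of calls) had a median of 0.07 and summed to 1.87 and 1.05 CPM in young and 1.75 and 3.19 CPM in old livers, highest in old replicate 2, where the muscle miRNAs were also highest.

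Targets described for these miRNAs in mammals were listed as background, and 16 of 24 were found. None was called by limma, 3 had an unadjusted p under 0.05, and the median log2 fold change was 0.15. Both old livers lay above the young for 6 of 16, beside 24.4% of all mRNAs, and below for 1, beside 25.0%. Of the miR-126 targets, VCAM1, an adhesion molecule, had 3.55 and 5.62 CPM in young and 4.26 and 2.78 CPM in old livers, and PIK3R2, a PI3 kinase subunit, 0.348, 0.716, 0.471 and 0.571 CPM in the same order. Both overlapped between the ages.

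Of the 6 miR-143 and miR-145 targets listed, 3 were found, and these 3 had higher values in both old livers (24.4% of all mRNAs did). IRS1, an insulin receptor substrate, had 0.915 and 1.502 CPM in young livers and 2.34 and 4.07 CPM in old livers (log2 fold change 0.91 ± 0.30, SE, limma, adjusted p = 0.318). KLF4, a transcription factor, had 0.152, 0, 0.260 and 0.640 CPM, and FSCN1, an actin bundler, 0.109, 0.012, 0.146 and 0.557 CPM, so that young replicate 2 was at or under the limit of 3 reads for each and both were highest in old replicate 2, where miR-145-5p was also highest. Young replicate 1 and old replicate 1 had 14 and 16 reads of KLF4 and 10 and 9 reads of FSCN1. The order of these livers thus rests on few reads and on the scaling.

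Of the 6 miR-199 targets, MTOR, the growth kinase, had 1.01 and 1.17 CPM in young and 1.66 and 1.80 CPM in old livers (log2 fold change 0.38 ± 0.12, SE, limma, adjusted p = 0.3005). DDR1, a collagen receptor, had 0.457 and 0.393 CPM in young and 1.27 and 0.835 CPM in old livers (0.52 ± 0.16, SE, limma, adjusted p = 0.305). These 2 lay higher in both old livers, and the other 4 overlapped between the ages: HIF1A at 1.83 to 3.55 CPM, CAV1 at 0.784 to 1.99 CPM, MET at 2.99 to 8.70 CPM and SIRT1 at 0.905 to 1.99 CPM. EZH2, the histone methyltransferase targeted by miR-214, was lower in both old livers, at 0.260 and 0.348 CPM against 0.555 and 0.462 CPM (log2 fold change -0.21 ± 0.12, SE, limma, adjusted p = 0.498). Of the miR-221 and miR-222 targets, KIT, ICAM1 and ETS1 overlapped between the ages at 0.796 to 1.71, 2.22 to 5.27 and 2.89 to 4.86 CPM. BBC3, a cell death protein, had 0 CPM in both young livers and 0.211 and 0.181 CPM in the old livers, with an adjusted p of 0.393 in limma, 0.172 in the exact test of edgeR, 0.0752 with a trended dispersion and 0.276 in the quasi-likelihood test.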

How the data were processed

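Members, gene lists and tests were chosen with earlier results of these data known. The deposited miRNA values are a normalized signal that the authors made with mirdeep2 and miRBase21 and call TPM, although they summed to 1.12e+07 to 1.89e+07 per library, more than TPM can, so what they were scaled to is unclear. The deposited CPM values of mRNAs came from reads that the authors aligned to Sscrofa10.2, and the submitters' processing notes name TopHat2 2.0.14, StringTie 1.2.3 and Salmon 0.6.0. Replicates were not pooled.

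In each library 100% of the values were whole multiples of 1 read, within 0.1 read, so that reads were recovered. Old and young livers (2 of each) were compared with limma 3.58.1 in R 4.3.3 on log2(value + 1), a scale that understates changes of low features, for features detected in 2 or more libraries. P-values were adjusted by Benjamini-Hochberg over all features, and a call needed an adjusted p under 0.05 with a log2 fold change beyond 1 either way. The exact test (common and tagwise dispersion) and the quasi-likelihood test of edgeR 4.0.16 were run on the reads. The exact test was first run with a trended dispersion, and the choice was made after both results had been seen, so both are given. Ratios within a library were compared by a two-sided exact permutation test, with adjustment over the 5 chosen first. The ratios between other arms, and the comparison with all arm pairs, were added after seeing the data, with no test.

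Each member with a mean of at least 100 was described by library, and of each gene list the 2 genes of largest change without overlap and with a mean CPM of at least 1, EGFL7 and every target found were named. Lists were joined by symbol, which 11654 of 21607 identifiers had. Gene neighbours came from RefSeq on a later assembly, so no coordinates are given. Python 3.11.15 with pandas 2.3.3, numpy 2.4.6, scipy 1.17.1 and matplotlib 3.10.9 was used. Alternatives were another pseudocount, filter, scaling, spread estimate and test, merged repeats of 5 miRNA names, a replicate block and each library left out.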

Additional observations from a re-analysis of the deposited data

How the results depend on the processing

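No member was called under any alternative, and 241 of the single log2 fold changes under other settings kept their direction, while 14 did not. Many of the 241 could not have changed. Another filter, merged repeats, an intensity trend and a replicate block leave the log2 fold change of a name as it is. The edgeR settings share almost the same estimate, and ssc-miR-199b-3p repeats ssc-miR-199a-3p. Leaving out each library in turn gave -0.71 to 1.40 for miR-126-5p, -0.41 to 0.10 for ssc-miR-143-3p, -0.35 to 0.0187 for miR-199a-5p, -0.49 to 0.93 for ssc-miR-214 and -0.0539 to 0.286 for miR-221-5p. miR-221-5p was -0.0893 after TMM scaling, -0.045 after median of ratios scaling and -0.0853 in the exact test with either dispersion and in the quasi-likelihood test of edgeR. The 5 members without overlap became 9 to 11 with a library left out, since 1 value then stands for an age. With each library left out the mean log2 difference was -0.88 to 0.41 for miR-126 5p to 3p, -1.25 to 0.0216 for miR-143 to miR-145 and -1.21 to 0.43 for miR-199a to miR-214. The exact test with a trended dispersion, which was run first, called 1 endothelial gene (EGFL7) and 1 smooth muscle gene (TAGLN). With the common and tagwise dispersion, settled on after both results had been seen, it called neither. The median of the targets was 0.44 in the exact test with either dispersion and in the quasi-likelihood test, 0.26 with a pseudocount of 0.1 and 0.03 with a mean of at least 1, and the cause was not tested.

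Over all miRNA names limma called 0, 16 with a mean of at least 10, and 7 with an intensity trend, while the exact test called 32, or 26 with a trended dispersion. Over all mRNAs limma called 0, or 2 with a mean of at least 1, and the exact test 399, or 534 with a trended dispersion. The deviations of same-numbered libraries correlated at -0.016 for miRNAs and 0.0902 for mRNAs across all features, which cannot speak for a given list. The stellate cell and fibroblast list summed to 56.4 and 90.2 CPM in young and 56.4 and 114.5 CPM in old livers, higher in both livers numbered 2. The blood cell miRNAs were higher in both livers numbered 1. The erythroid and skeletal muscle lists had no such shared order. What lies behind the numbers was not tested. With a replicate block, which cannot move a fold change in this balanced design, 0 members were called. With 2 livers a group, the limma intervals of the members as deposited reached over 1 log2 unit to a side, which limits every statement on their difference with age. The limma standard errors of the mRNAs varied by gene, with 0.12 for EGFL7, 0.27 for TAGLN and 0.71 for KDR. Statements on mRNAs also rest on 2 livers a group.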
